A study of Mus musculus with 6 samples.

Results

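DNA replication and S phase genes were followed in sorted mouse lung mesenchyme after late-gestation exposure to 5E1, a monoclonal antibody that binds hedgehog ligands. The set holds 52 genes, taken by symbol from the 48397 gene symbols in the count tables, and covers origin licensing, the replicative helicase, the DNA polymerases, the sliding clamp and its loader, nucleotide supply and chromatin at the fork. All 52 passed the low-count filter and were among the 16198 genes tested. PdgfraEGFP/+ dams were injected intraperitoneally at E18.5 with 5E1 or with control IgG. PdgfraEGFP/+ pups were taken at postnatal day 8, their lungs were dissociated, and live EGFP-positive cells were sorted for bulk RNA sequencing, with 3 libraries per group. Animals of both groups thus carried the same reporter allele of Pdgfra, which encodes a receptor for PDGF, and the antibody was given to the dam and not to the pup. Cells were selected on the reporter of that same gene, and the labels do not say whether a library comes from 1 pup or from a pool. P-values therefore measure only the spread between these 6 libraries, which may be technical in part. In each group 1 library had 2 Y-linked reads and the others had 3592 or more. The libraries of a group were thus not all from the same animals, and how many animals each group holds is not given. By its title, the series asks how hedgehog and PDGF signals interact as alveolar septa form.

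Replication is prepared in G1, when the origin recognition complex, CDC6 and CDT1 load the ring-shaped MCM helicase onto DNA. In S phase CDC45 and the GINS complex join the ring to form the active helicase, polymerase alpha-primase lays down primers, and polymerases delta and epsilon copy the strands, held on DNA by the PCNA clamp. Many of these genes are transcribed by E2F factors once cells pass from G1 into S phase, so their transcripts are widely used to mark dividing cells. In the newborn lung, fibroblasts and myofibroblasts divide while septa form.

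Gene counts summed to 16958433 to 28405457 reads per IgG library and 18857199 to 34318583 per 5E1 library. Levels are given as CPM, a gene's reads per 1e6 gene counts of its library after TMM scaling, which equalises the bulk of genes across libraries. Libraries of 1 group differed from each other in the 5E1 arm more than in the IgG arm. The coefficient of variation over 3 libraries had a median over the 52 genes of 8.74% in IgG and 29.4% in 5E1. 5E1 replicate 1 was the highest of the 5E1 libraries for 44 of the 52 genes, against 34.4% of all genes tested, and 5E1 replicate 2 the lowest for 41, against 37.1%. 5E1 replicate 1 and IgG replicate 3 each had 2 reads over 4 Y-linked genes, where the other libraries had 3592 to 6913. The 6 mesenchymal markers checked (Pdgfra, Pdgfrb, Col1a1, Col1a2, Tcf21 and Vim) summed to 28150 to 38339 CPM in IgG and 32289 to 63616 CPM in 5E1, and 1 of them rose in 5E1 (Pdgfrb) and 0 fell. The 6 neutrophil markers summed to 11.4 to 13.9 CPM in IgG and 105 to 175 CPM in 5E1, with 5 of 5 tested higher. Markers of granulocyte precursors rose in 2 of 3 tested (Camp and Ltf), and the third, Prtn3, was not called (log2 fold change 0.40, edgeR adjusted p 0.669). The list summed to 0.728 to 3.52 CPM in IgG and 11.2 to 14.1 CPM in 5E1, and Elane and Mpo had at most 6 reads in any library. Macrophage markers rose in 3 of 6 (27.5 to 39.3 CPM in IgG, 43.4 to 68.7 CPM in 5E1), lymphocyte markers in 1 of 3 tested, and the leukocyte marker Ptprc rose. Of 5 endothelial and 4 erythroid markers 0 were called, and of 6 epithelial and 4 mesothelial markers 1 each rose (Ager and Lrrn4). Erythroid markers summed to 116 to 139 CPM in IgG and 177 to 838 CPM in 5E1, with no overlap. 5E1 replicate 2, the lowest library for most of the 52 genes, was the highest of the 6 libraries in endothelial markers (197 CPM, against 62.0 to 97.3 in the others), epithelial markers (1388 CPM, against 402 to 646) and mesothelial markers (102 CPM, against 10.6 to 49.2). No marker was at 0 reads over all libraries, and the part of these cells in the results was not tested.

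Replication transcripts were less abundant in cells from 5E1-exposed pups. Of the 52 genes, 37 fell, 0 rose and 15 did not pass the test (edgeR quasi-likelihood, Benjamini-Hochberg adjusted p under 0.05), where 11.1% of all genes tested were called lower, 12.1% higher and 23.2% in either direction. The log2 fold change was below 0 for all 52 genes, against 49.9% of genes tested, and its median was -0.85, against 0.00087 over all genes tested. At an unadjusted p under 0.05, 47 genes were lower and 0 higher, where 17.9% of all genes tested were lower. DESeq2 and limma-voom each called 40 lower and 0 higher, where they called 11.4% and 11.8% of all genes tested lower. Genes that passed and were at least 2-fold lower numbered 21, against 3.01% of genes tested. All 3 5E1 libraries lay below all 3 IgG libraries for 46 genes, against 21.4% of genes tested. Together the 52 genes took 0.142%, 0.153% and 0.163% of gene counts in the IgG libraries and 0.0976%, 0.0681% and 0.0726% in the 5E1 libraries. The 2 groups did not overlap in this share, and 5E1 replicate 1 lay closest to IgG. In bulk RNA, fewer dividing cells and less transcript per cell cannot be told apart.

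**Figure D1:**
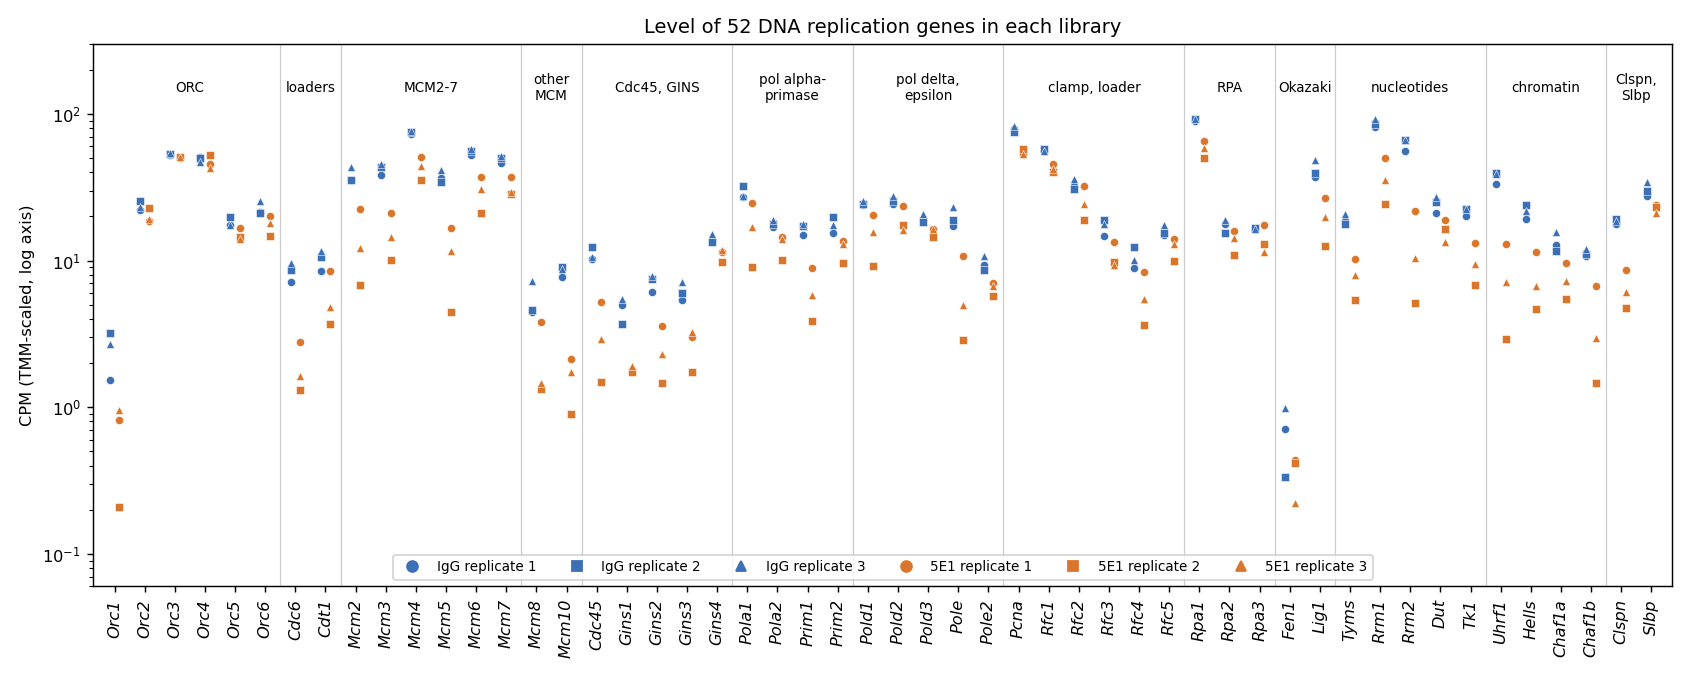
Level of each of the 52 genes in each library, in TMM-scaled CPM on a log axis, with genes grouped by role along the x axis. Blue symbols are IgG and orange symbols 5E1 libraries, with 1 symbol shape per replicate. For 46 genes the 3 orange symbols lie below the 3 blue ones, and the circle of 5E1 replicate 1 is mostly the highest of the orange ones.

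The number of genes called lower depended on single libraries, and the direction did so for 1 gene. The log2 fold change stayed below 0 for every gene tested under 16 alternatives, except for Orc4 without 5E1 replicate 3 (0.0027). The number called lower was 19 without IgG replicate 2, 18 without IgG replicate 3 and 19 without 5E1 replicate 3, while it was 26, 43 and 32 without IgG replicate 1, 5E1 replicate 1 and 5E1 replicate 2. Over all genes tested, 1791 were called lower with all libraries, and 1084, 1145 and 1073 in the former fits. In the latter fits, 1128, 1819 and 1714 were called lower. Of the 37 genes called lower with all libraries, 18 were also called lower in each of these 6 fits. Of the 1791 such genes over all genes tested, 863 were, which is 5.33% of the 16198 genes tested. The 18 genes were Cdc6, Mcm3, Mcm4, Mcm6, Mcm7, Mcm10, Cdc45, Gins1, Gins2, Gins3, Prim1, Pcna, Rfc1, Rpa1, Tyms, Tk1, Hells and Clspn. Without TMM, when libraries were scaled by their totals only, the median of all genes moved by -0.14 and 28.6% instead of 52.3% of all calls were higher. In that fit 46 of the 52 genes were called lower, as were 20.2% of all genes tested.

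**Figure D2:**
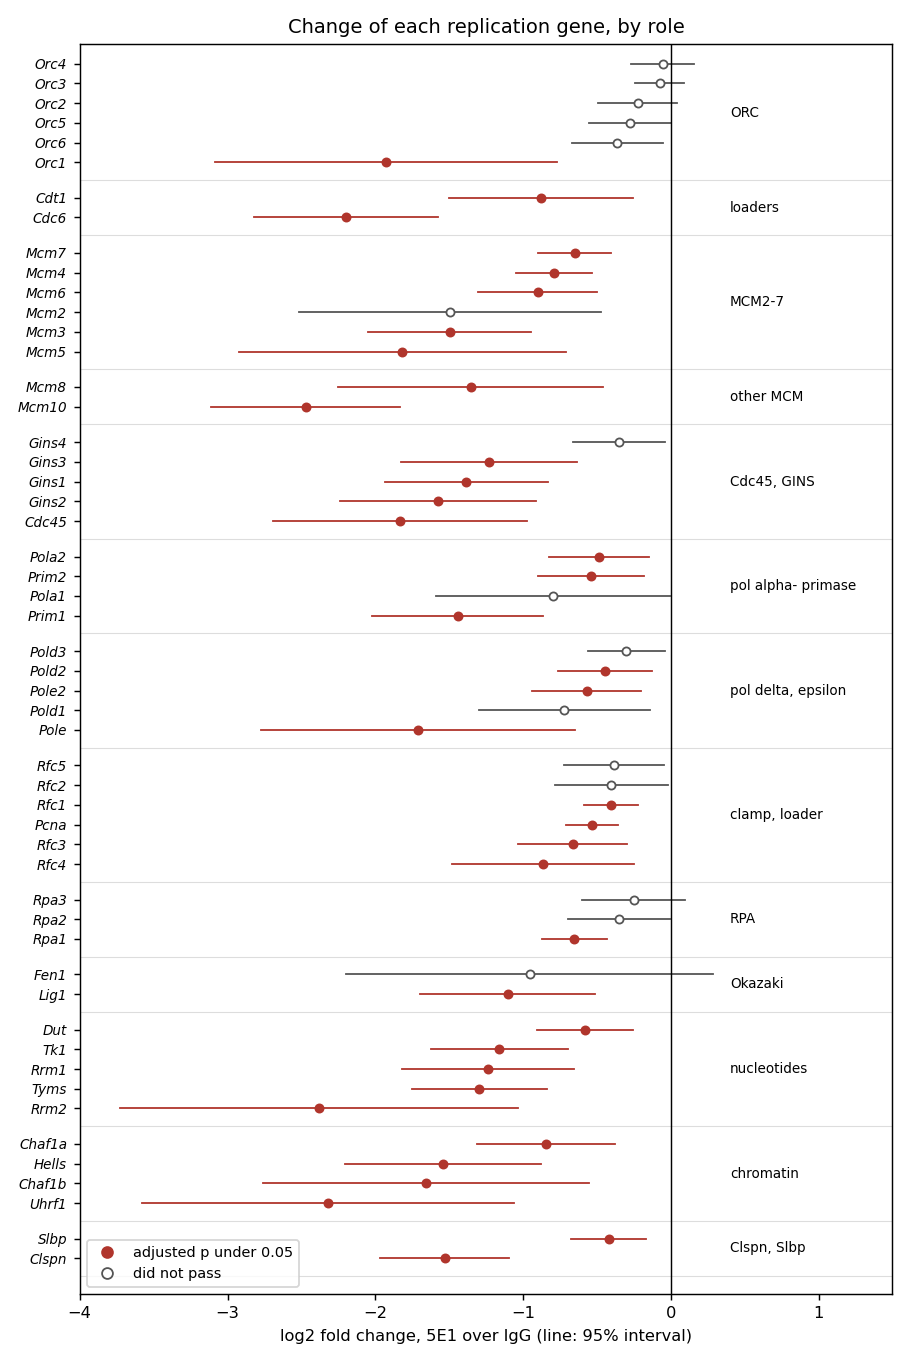
Log2 fold change of each gene, 5E1 over IgG, with its 95% interval from the edgeR fit of 3 against 3 libraries, grouped by role. Filled red points passed an adjusted p of 0.05 (37 genes) and open grey points did not (15 genes). Every point lies left of 0, and Orc4 and Orc3 lie nearest to it.

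Promoter letters were examined because E2F factors are the textbook regulators of this set. The set was picked by role, so the shares below describe the list and not a change in 5E1. RefSeq promoters (build GRCm38.p6, 250 bases before to 50 bases after a start) were found for 45 of the 52 genes, with 54 starts in all. The E2F letters searched on both strands were TTTCCCGC, TTTGGCGC, TTTCGCGC and TTTGCCGC, whose matches can overlap each other. They occurred in 19 of the 54 promoters (35.2%), against 2.26% of all 32851 promoters in the table and 4.32% of the promoters with a GC content at or above the median of this set (61.8%). The letters CCAAT, bound by NF-Y, occurred in 57.4% of these promoters, 37.4% of all and 30.4% of those at or above that GC content. The letters TTTGAA, part of the CHR element of many mitotic genes, occurred in 9.26% of these, fewer than the 17.9% of all promoters and more than the 4.9% of those at or above that GC content. Of the 19 genes with E2F letters 15 fell and the median log2 fold change was -1.10, and of the 26 genes without them 17 fell and the median was -0.62. This difference was not tested. A match is a run of letters and not a measured binding site, and sites with other letters were not searched.

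Below are 7 of these promoters, the 150 bases before the start, 5′ to 3′ on the gene's strand, with E2F letters and CCAAT or its complement in capitals. Of the genes that fell and hold E2F letters in this window, 5 (Cdc6, Mcm5, Mcm6, Gins3, Hells) are printed. They are set beside Orc3, which holds them and did not pass, and Mcm10, which fell most and holds none in this window. Orc1 and Rfc3, which fell, and Pola1, which did not pass, also hold E2F letters in this window and are not printed. The 7 printed promoters were chosen after the values were seen.
Cdc6: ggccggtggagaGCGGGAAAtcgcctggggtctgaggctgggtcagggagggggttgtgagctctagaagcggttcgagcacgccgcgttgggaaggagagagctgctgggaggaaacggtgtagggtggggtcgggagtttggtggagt
Mcm5: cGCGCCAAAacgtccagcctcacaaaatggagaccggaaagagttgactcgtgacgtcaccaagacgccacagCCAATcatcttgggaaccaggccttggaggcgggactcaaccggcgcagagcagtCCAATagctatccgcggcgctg
Mcm6: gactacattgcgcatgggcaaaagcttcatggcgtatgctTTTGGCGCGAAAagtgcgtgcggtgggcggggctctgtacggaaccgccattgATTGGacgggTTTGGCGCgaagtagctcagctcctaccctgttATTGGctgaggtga
Gins3: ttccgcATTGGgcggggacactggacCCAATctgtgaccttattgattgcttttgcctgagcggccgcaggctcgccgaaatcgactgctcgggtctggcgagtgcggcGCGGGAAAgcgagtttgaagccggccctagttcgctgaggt
Hells: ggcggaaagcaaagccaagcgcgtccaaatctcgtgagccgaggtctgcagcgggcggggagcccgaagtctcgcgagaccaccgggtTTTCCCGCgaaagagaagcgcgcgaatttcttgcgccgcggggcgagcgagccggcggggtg
Orc3: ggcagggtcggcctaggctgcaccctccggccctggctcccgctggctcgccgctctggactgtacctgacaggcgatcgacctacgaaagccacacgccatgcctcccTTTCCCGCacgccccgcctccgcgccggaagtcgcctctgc
Mcm10: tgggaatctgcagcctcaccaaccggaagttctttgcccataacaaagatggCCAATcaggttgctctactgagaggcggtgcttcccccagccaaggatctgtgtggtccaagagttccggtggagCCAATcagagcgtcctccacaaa
Cdc6 lies at chr11:98908001-98908150 (plus strand), Mcm5 at chr8:75109359-75109508 (plus), Mcm6 at chr1:128359706-128359855 (minus), Gins3 at chr8:95633409-95633558 (plus), Hells at chr19:38930840-38930989 (plus), Orc3 at chr4:34614943-34615092 (minus) and Mcm10 at chr2:5012792-5012941 (minus). The starts used here are RefSeq starts, and the GENCODE M21 annotation places some elsewhere. Its outermost start of Cdc6 (98907801) lies upstream of all printed bases. Those of Gins3 (95633453), Hells (38930915) and Orc3 (34614944) lie within the printed bases. Mcm6 holds 3 E2F matches, 2 of them overlapping. CCAAT letters stand at 2 places each in Mcm5, Mcm6, Gins3 and Mcm10, and at none in the printed bases of Cdc6, Hells and Orc3.

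**Figure D3:**
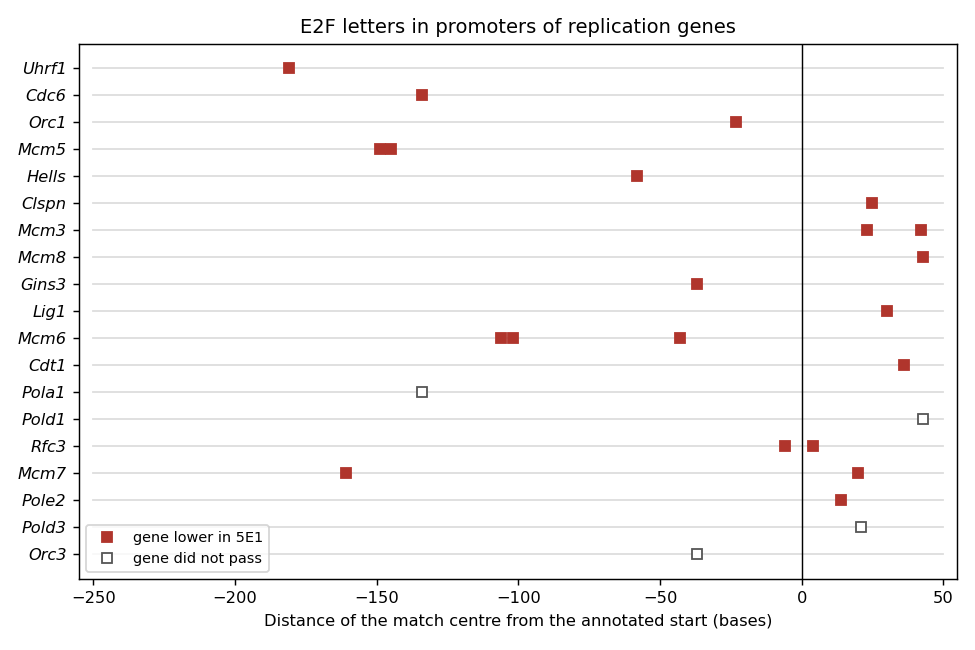
Position of E2F letters in the 19 promoters that hold them, as the distance of the match centre in bases from the annotated start, with genes ordered by log2 fold change from the lowest at the top. Red squares are genes that fell (15) and open squares genes that did not pass (4). Matches lie on both sides of the start.

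The origin recognition complex, which marks origins and recruits the loaders, had 1 of its 6 genes called lower. Of all genes tested, 11.1% were called lower. The called gene was Orc1, the subunit gene known to be induced by E2F. It measured 1.53, 3.19 and 2.69 CPM in IgG replicates 1 to 3 and 0.815, 0.208 and 0.957 CPM in 5E1 replicates 1 to 3. The groups did not overlap, and the fall was 3.81-fold (log2 fold change -1.93, SE 0.52, edgeR adjusted p 0.0229). The adjusted p of Orc1 in edgeR was 0.0809 when IgG replicate 2 was left out and 0.0744 when IgG replicate 3 was, so that the call was lost in each case. Orc1 rested on 7 to 74 reads per library. Orc4 measured 50.8, 49.8 and 46.8 CPM in IgG and 45.9, 52.7 and 43.1 CPM in 5E1. Its libraries interleaved, and the 95% interval of its log2 fold change ran from -0.27 to 0.15 (edgeR adjusted p 0.717). Orc2, Orc3, Orc5 and Orc6 did not pass either, with log2 fold changes of -0.22, -0.08, -0.28 and -0.36, and the lowest interval bound among them was -0.67, for Orc6. For 11 of the 15 genes of the whole set that did not pass, the interval lay within 2-fold in either direction.

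Both loader genes fell, where 11.1% of all genes tested did. Cdc6, which encodes the ATPase that works with ORC to load the helicase, measured 7.19, 8.68 and 9.62 CPM in IgG and 2.77, 1.31 and 1.62 CPM in 5E1. The groups stood well apart, and the fall was 4.58-fold (log2 fold change -2.20, SE 0.28, edgeR adjusted p 0.000487). Cdt1, which encodes the partner that brings the helicase to the origin, measured 8.45, 10.6 and 11.6 CPM in IgG and 8.42, 3.72 and 4.82 CPM in 5E1. Here 5E1 replicate 1 all but touched IgG replicate 1, and the log2 fold change of -0.88 (SE 0.28) had an edgeR adjusted p of 0.0464. The call of Cdt1 held without 5E1 replicate 1 and ended without any other library (adjusted p 0.0586 to 0.144).

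The 6 subunit genes of the MCM2-7 ring, the motor of the replicative helicase, all had 5E1 libraries below IgG libraries, and 5 passed. Such separation held for 21.4% of all genes tested, and 11.1% were called lower. Mcm4 (chromosome 16, 15623897 to 15637400 in mm10) measured 73.3, 74.8 and 76.8 CPM in IgG and 50.7, 35.7 and 43.9 CPM in 5E1, a 1.73-fold fall (log2 fold change -0.79, SE 0.12, edgeR adjusted p 0.00106). Its IgG libraries were tightly grouped, and the 5E1 libraries spread more widely beneath them. Mcm2 measured 35.3, 35.4 and 43.3 CPM in IgG and 22.3, 6.82 and 12.2 CPM in 5E1. Its log2 fold change was -1.49 (SE 0.41), and with a coefficient of variation of 57.3% over the 5E1 libraries its edgeR adjusted p was 0.0509. Mcm2 passed without 5E1 replicate 1 (adjusted p 0.000753) or 2 (0.0190), with DESeq2 (0.0132), with limma-voom (0.00877) and with 6 other settings. Mcm5 (-1.82), Mcm3 (-1.50), Mcm6 (-0.90) and Mcm7 (-0.65) fell, and the call of Mcm5 ended without any IgG library or 5E1 replicate 3 (edgeR adjusted p 0.0912 to 0.109). Exons of Mcm7 overlap those of Ap4m1, Cops6, Mir25 and Mir93 over 12.6% of their length, and the part of this overlap in its count was not tested.

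Per length, the ring's subunit genes were unequal in IgG. Mcm4 was the highest at 20.9 ± 0.486 CPM per kilobase of annotated exon (SD, n = 3), Mcm6 (11.8 ± 0.592), Mcm3 (11.4 ± 0.964) and Mcm7 (11.1 ± 0.605) lay within their spread of each other, Mcm5 was at 9.42 ± 0.946 and Mcm2 the lowest at 5.46 ± 0.666. In 5E1 the levels were 12.1 ± 2.10 for Mcm4, 7.11 ± 1.06 for Mcm7, 6.37 ± 1.73 for Mcm6, 4.07 ± 1.49 for Mcm3, 2.73 ± 1.54 for Mcm5 and 1.98 ± 1.133 for Mcm2. Mcm4 was the highest and Mcm2 the lowest in both groups, whereas the middle 4 genes spread apart in 5E1. The exon length counts every annotated exon, so rarely used exons lower a gene's value.

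**Figure D4:**
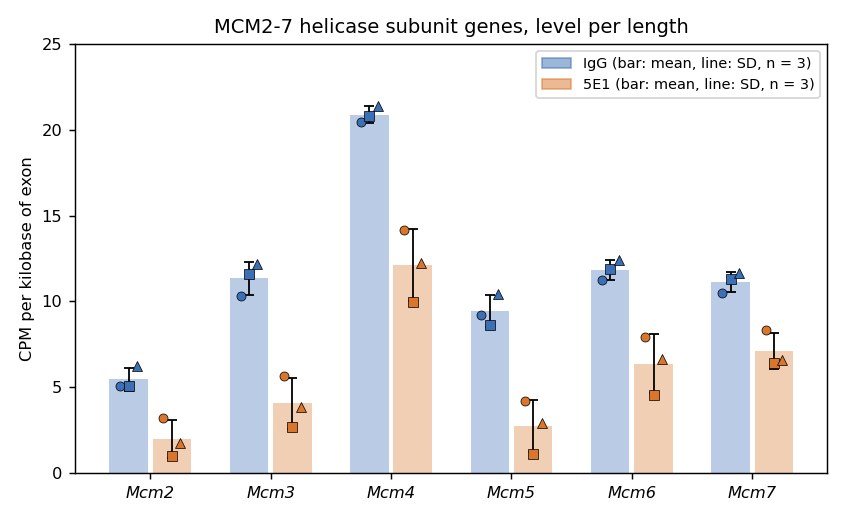
Level of the 6 MCM2-7 subunit genes in CPM per kilobase of annotated exon. Bars are means and lines SD over 3 libraries, blue for IgG and orange for 5E1, and symbols are single libraries. For each gene the 3 5E1 libraries lie below the 3 IgG libraries, and Mcm4 is the highest gene in both groups.

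Of the other MCM genes, Mcm10 (chromosome 2, 4989714 to 5012791 in mm10, minus strand), needed for the loaded helicase to become active, had the lowest log2 fold change of the set. It measured 7.77, 9.07 and 8.82 CPM in IgG and 2.12, 0.893 and 1.73 CPM in 5E1, a 5.54-fold fall (log2 fold change -2.47, SE 0.29, edgeR adjusted p 0.000301). The highest 5E1 library was far below the lowest IgG library. Mcm8, a helicase gene of DNA repair, measured 4.46, 4.59 and 7.30 CPM in IgG and 3.80, 1.34 and 1.47 CPM in 5E1. Its log2 fold change of -1.35 (SE 0.40) had an edgeR adjusted p of 0.0365, and the call held without 5E1 replicate 1 and ended without any other library (0.0564 to 0.134). Without 5E1 replicate 1 the value was -1.96.

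CDC45 and the 4 GINS subunits turn the loaded ring into the moving helicase, and 4 of these 5 genes fell at least 2-fold. Of all genes tested, 3.01% did. Gins1 measured 5.01, 3.70 and 5.45 CPM in IgG and 1.79, 1.73 and 1.91 CPM in 5E1 (log2 fold change -1.39, SE 0.25, edgeR adjusted p 0.00311). Its 5E1 libraries lay close together, unlike most genes of the set. Cdc45 (-1.83), Gins2 (-1.57) and Gins3 (-1.23) fell as well. Gins4 measured 13.6, 13.3 and 15.2 CPM in IgG and 11.5, 9.71 and 11.9 CPM in 5E1. Its groups did not overlap, but the log2 fold change of -0.35 (SE 0.14) did not pass (edgeR adjusted p 0.0945). For Gins2, 67.3% of the exon length overlaps Gse1 on the opposite strand, and whether counting used strand is not given in the sources used here.

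Primers are made by polymerase alpha-primase. Prim1, the catalytic primase subunit gene, measured 15.02, 17.2 and 17.6 CPM in IgG and 8.97, 3.87 and 5.82 CPM in 5E1 (log2 fold change -1.44, SE 0.26, edgeR adjusted p 0.0040). The groups stood well apart. Pola1, the catalytic polymerase subunit gene, measured 27.2, 32.3 and 27.8 CPM in IgG and 24.8, 9.08 and 16.9 CPM in 5E1, and 5E1 replicate 1 came close to IgG. Its log2 fold change of -0.80 (SE 0.33) did not pass (edgeR adjusted p 0.134, and 0.0109 without 5E1 replicate 1). Prim2 (-0.54) and Pola2 (-0.49) fell, and both calls ended without IgG replicate 2 or 3 or 5E1 replicate 2 or 3, that of Pola2 also without IgG replicate 1 (edgeR adjusted p 0.0620 to 0.128 over both).

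Polymerases delta and epsilon copy the lagging and the leading strand. Pole, the catalytic subunit gene of epsilon, had a log2 fold change of -1.71 (-2.34 without 5E1 replicate 1), and that of delta, Pold1, -0.72 with an edgeR adjusted p of 0.0729. Pole2, an accessory subunit gene of epsilon, measured 9.33, 8.68 and 10.7 CPM in IgG and 7.01, 5.75 and 6.66 CPM in 5E1 (log2 fold change -0.57, SE 0.17, edgeR adjusted p 0.0325). Pold3, an accessory subunit gene of delta, measured 19.2, 18.3 and 20.7 CPM in IgG and 16.5, 14.4 and 16.4 CPM in 5E1, a small and even shift that did not pass (log2 fold change -0.30, SE 0.12, edgeR adjusted p 0.0903). Pold2 fell by 0.44 on the log2 scale. The calls of Pole, Pole2 and Pold2 each ended without any IgG library or 5E1 replicate 3, those of Pole2 and Pold2 also without 5E1 replicate 2 (edgeR adjusted p 0.0522 to 0.150).

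Of the 6 genes of the sliding clamp and its loader 4 fell, against 11.1% of all genes tested. The role's median log2 fold change was -0.47. Pcna, which encodes the clamp, was the highest gene of the set per length, at 32.9 ± 1.44 CPM per kilobase in IgG and 22.7 ± 1.02 in 5E1 (SD, n = 3). In CPM it measured 79.3, 75.3 and 82.1 in IgG and 53.4, 57.4 and 53.0 in 5E1, a fall of 1.45-fold (log2 fold change -0.53, SE 0.08, edgeR adjusted p 0.00111). The 5E1 libraries lay close together here, and 5E1 replicate 2 was the highest of them. Pcna has annotated pseudogenes (Pcna-ps1 and Pcna-ps2), which leaves its count uncertain to that extent. Of the loader genes, Rfc1 (-0.40), Rfc3 (-0.66) and Rfc4 (-0.86) fell. Rfc2 measured 32.3, 30.7 and 36.0 CPM in IgG and 32.1, 18.8 and 24.5 CPM in 5E1, with 5E1 replicate 1 inside the IgG range, and did not pass (log2 fold change -0.40, edgeR adjusted p 0.121). Rfc5 did not pass either (-0.38, adjusted p 0.0968). The call of Rfc3 ended without IgG replicate 2 or 3 or 5E1 replicate 3 (edgeR adjusted p 0.0574 to 0.0639), and that of Rfc4 without any library but 5E1 replicate 1 (0.0657 to 0.149).

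Replication protein A coats single-stranded DNA at forks and in repair, and 1 of its 3 subunit genes fell, against 11.1% of all genes tested. Rpa1 measured 90.0, 92.1 and 91.7 CPM in IgG and 65.8, 50.1 and 58.3 CPM in 5E1 (log2 fold change -0.65, SE 0.10, edgeR adjusted p 0.00123). Its IgG libraries were nearly level and all 5E1 libraries lay below them. Rpa3 measured 16.5, 16.7 and 16.4 CPM in IgG and 17.4, 13.1 and 11.4 CPM in 5E1. Its highest library was 5E1 replicate 1, and its interval ran from -0.60 to 0.096 on the log2 scale (edgeR adjusted p 0.280). Rpa2 did not pass (-0.35, adjusted p 0.134). Differences between the subunit genes were not tested.

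Okazaki fragments are trimmed by FEN1 and joined by DNA ligase 1. Lig1 measured 37.4, 39.7 and 48.2 CPM in IgG and 26.6, 12.5 and 19.7 CPM in 5E1 (log2 fold change -1.10, SE 0.25, edgeR adjusted p 0.0191). The groups did not overlap, and the call ended without IgG replicate 2 or 3 or 5E1 replicate 3 (adjusted p 0.0568 to 0.0716). Fen1 was the lowest gene of the set, with 6 to 27 reads per library. It measured 0.715, 0.336 and 0.980 CPM in IgG and 0.435, 0.417 and 0.221 CPM in 5E1, with groups that overlapped (edgeR adjusted p 0.247). In GENCODE M21, 84.2% of the exon length of Fen1 (chromosome 19, 10199132 to 10204169, minus strand) overlaps exons of Tmem258 and Gm10143 on the other strand. Exons of 19 of the 52 genes overlap those of another gene, over 50% of the exon length in 3 of them (Fen1, Gins2 and Chaf1a). The deposited tables list reads ambiguous between genes apart (1.94% to 2.66% of each library's lines), and their part in the level of Fen1 was not tested.

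All 5 genes of nucleotide supply fell, 4 of them at least 2-fold, where 11.1% and 3.01% of all genes tested did. Tyms, which encodes thymidylate synthase, measured 18.6, 17.9 and 20.6 CPM in IgG and 10.2, 5.39 and 7.92 CPM in 5E1 (log2 fold change -1.30, SE 0.21, edgeR adjusted p 0.0017). The groups stood apart, with 5E1 replicate 2 lowest. Tyms, like Pcna, has an annotated pseudogene (Tyms-ps), whose part in its count was not tested. Rrm2 (chromosome 12, 24708241 to 24714146 in mm10), the S phase subunit gene of ribonucleotide reductase, measured 56.3, 66.4 and 66.9 CPM in IgG and 21.8, 5.15 and 10.4 CPM in 5E1, a 5.22-fold fall. With a coefficient of variation of 68.5% over the 5E1 libraries, its edgeR adjusted p was 0.0323 (log2 fold change -2.38, SE 0.53), and the call ended without any IgG library or 5E1 replicate 3 (0.0917 to 0.117). Without 5E1 replicate 1 the log2 fold change of Rrm2 was -3.04. The large reductase subunit gene, Rrm1 (log2 fold change -1.24), the thymidine kinase gene Tk1 (-1.16) and the dUTPase gene Dut (-0.58) fell too. The calls of Rrm1 and Dut ended without IgG replicate 2 or 3 or 5E1 replicate 3 (edgeR adjusted p 0.0505 to 0.0724).

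The 4 genes that rebuild or mark chromatin behind the fork fell, where 11.1% of all genes tested did. Hells, a chromatin remodeller gene linked to DNA methylation, measured 19.2, 24.0 and 21.7 CPM in IgG and 11.4, 4.64 and 6.66 CPM in 5E1 (log2 fold change -1.54, SE 0.29, edgeR adjusted p 0.00729). The groups were clearly separate. Chaf1b, a subunit gene of the histone chaperone CAF-1, measured 10.8, 11.1 and 11.9 CPM in IgG and 6.68, 1.46 and 2.98 CPM in 5E1. The wide 5E1 spread gave a log2 fold change of -1.66 with an SE of 0.47 (edgeR adjusted p 0.0425), and of -2.36 without 5E1 replicate 1. Uhrf1, whose protein brings the maintenance methyltransferase to newly copied DNA, fell by 2.32 on the log2 scale (by 2.91 without 5E1 replicate 1), and Chaf1a by 0.85. The calls of Chaf1b and Uhrf1 ended without any IgG library or 5E1 replicate 3, and that of Chaf1a without IgG replicate 3 or 5E1 replicate 3 (edgeR adjusted p 0.0553 to 0.141). Exons of Chaf1a overlap Ubxn6 on the other strand over 52.5% of their length.

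Clspn (chromosome 4, 126556935 to 126593903 in mm10) encodes the mediator that passes the fork checkpoint signal to CHK1. It measured 17.8, 19.1 and 18.7 CPM in IgG and 8.64, 4.73 and 6.08 CPM in 5E1, a 2.89-fold fall (log2 fold change -1.53, SE 0.20, edgeR adjusted p 0.000532). No 5E1 library came near the IgG libraries. Slbp, which encodes the protein that binds the stem-loop of histone mRNAs, measured 27.4, 29.8 and 34.3 CPM in IgG and 24.0, 23.3 and 21.1 CPM in 5E1 (log2 fold change -0.42, SE 0.11, edgeR adjusted p 0.0227). Its 5E1 libraries were close together and just under IgG, and the call ended without IgG replicate 2 or 3 or 5E1 replicate 3 (0.0541 to 0.0947).

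Another 65 genes of the pathway were read in the same fit. Of these 33 fell, 1 rose and 31 did not pass, with a median log2 fold change of -0.43. Of all genes tested, 11.1% fell and 12.1% rose. Among 15 genes of firing and licensing control 9 fell, among them Fbxo5 (-1.27), an inhibitor of the ubiquitin ligase APC/C, and Wdhd1 (-1.55), which ties polymerase alpha to the helicase. Among 19 genes of the fork and of alternative clamp loaders 10 fell, including the nuclease gene Exo1 (-2.30) and the clamp loader gene Chtf8 (-0.68). Of 7 replication chromatin genes 5 fell, including the histone chaperone genes Asf1b (-2.37) and Nasp (-0.70). Of 9 S phase checkpoint genes 3 fell, including the kinase gene Chek1 (-1.07) and the phosphatase gene Cdc25a (-0.52), and the call of Chek1 ended without IgG replicate 2 (edgeR adjusted p 0.0520). Of 15 further genes of nucleotide supply 6 fell, including Dck (-1.24), the deoxycytidine kinase gene, and Umps (-0.96), which makes UMP. The gene that rose was Impdh2, of guanine nucleotide synthesis, at 68.8, 61.9 and 68.2 CPM in IgG and 75.1, 79.0 and 84.2 CPM in 5E1 (log2 fold change 0.26, edgeR adjusted p 0.0443). Its call ended with library size alone (0.354), with the replicate block (0.0672) and without any library but 5E1 replicate 1 (0.0625 to 0.167). Fewer of the 65 genes fell without IgG replicate 1 (21), IgG replicate 2 (20), IgG replicate 3 (22) or 5E1 replicate 3 (20). Over all genes tested, 1128, 1084, 1145 and 1073 were called lower in these fits, in the same order, against 1791 with all libraries.

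A list of 20 genes of G2 and mitosis was set beside the replication genes. Of these 19 fell, where 11.1% of all genes tested did. The list's median log2 fold change was -2.05, and the other gene, Top2a, had -2.33 with an edgeR adjusted p of 0.0596. On the log2(CPM + 0.5) scale, relative to the IgG mean of each gene, the median over the 52 replication genes was -0.43, -1.27 and -0.82 in 5E1 replicates 1, 2 and 3. The medians over the mitosis genes were -1.30, -2.86 and -2.06 in the same order. In both lists 5E1 replicate 1 was nearest to IgG and replicate 2 farthest. Over the 65 other pathway genes the medians were -0.27, -0.49 and -0.52, so that replicate 3 was farthest there. The fall of the mitosis genes was larger than that of the 52 replication genes in each 5E1 library, a difference given as medians and not tested. Mitosis genes called lower numbered 12 without IgG replicate 1, 11 without IgG replicate 2 or 3, and 9 without 5E1 replicate 3. Lower calls over all genes tested numbered 1128, 1084, 1145 and 1073 without IgG replicates 1, 2 and 3 and 5E1 replicate 3, against 1791.

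**Figure D5:**
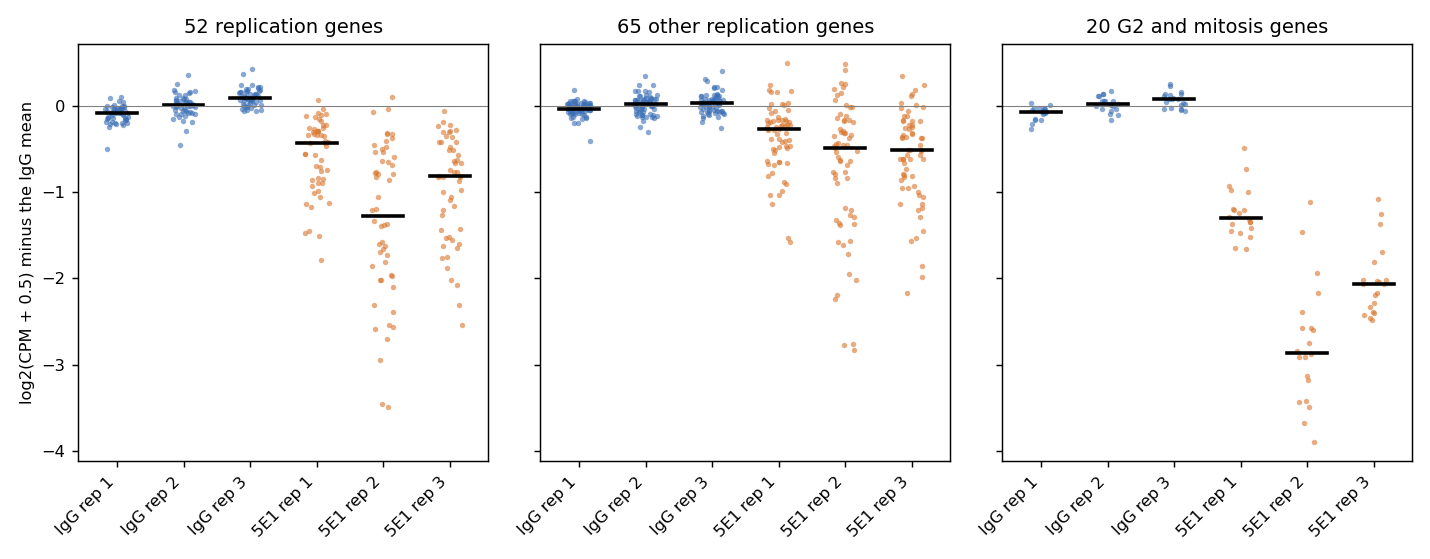
Level of each gene in each library, as log2(CPM + 0.5) minus the mean of the 3 IgG libraries, for 52 replication genes, 65 other genes of the pathway and 20 genes of G2 and mitosis. Points are genes and black bars medians. The medians of the replication genes are -0.43, -1.27 and -0.82 in the 5E1 libraries, and those of the mitosis genes lie lower in each.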

How the data were processed

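Libraries were made with the TruSeq Stranded mRNA kit, per the labels' protocols. The authors deposited whole-number read counts per gene symbol, 1 table per library, with counter summary lines apart. The submitters' processing notes name build mm10, HTSeq 0.6.0, STAR 2.5.0c, DESeq2 1.10.0, bedtools 2.17.0, R 3.5.1 and Picard 1.126, with no role or order. Whether counting used strand, which annotation it used and what was done with duplicates is not given in the sources used here. Summary lines (36.4% to 54.7% of each library's lines) were left out.

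Groups followed the labelled treatment. In the titles, the group also follows the sample number, so that order of handling and group cannot be told apart. Counts were fitted with edgeR 4.0.16 (limma 3.58.1, R 4.3.3): filterByExpr (minimum count 10, total 15), TMM scaling, robust quasi-likelihood F-tests of 5E1 against IgG, Benjamini-Hochberg adjustment over 16198 genes. Calls have an adjusted p under 0.05. Fold changes use edgeR's prior count of 0.125. The edgeR fit, and no other step, was tried on simulated counts with known changes. These had the same spread setting for every gene and both groups, so unequal spread between the groups was not tested. No pair of libraries within a group agreed within sampling noise (chi-square per degree of freedom 16.1 to 55.8). Alternatives were DESeq2 1.42.0, limma-voom, RLE factors, scaling by totals, other filters, no robust estimation, a replicate block, a covariate for lack of Y-linked reads (Ddx3y, Eif2s3y, Kdm5d, Uty) and leaving out libraries. Exon lengths and overlaps came from GENCODE M21 on GRCm38, and promoters from RefSeq.

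The members and lists were chosen with earlier results of these data known. Values in every library are given for the genes with the smallest and the largest p of each role. Of the other pathway genes, up to 2 per list with the smallest p, and any that rose, are named. Genes whose call ends when a library is left out may be named with that p. Marker lists cover mesenchyme, neutrophils, granulocyte precursors, macrophages, lymphocytes, leukocytes, endothelium, epithelium, erythroid cells and mesothelium.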

Additional observations from a re-analysis of the deposited data

How the results depend on the processing

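Replication genes called lower numbered 37, and between 31 and 46 in the fits that kept all 6 libraries (32 of 48 tested with a filter of 5 CPM), and 18 to 43 when 1 library was left out. With 2 libraries left out, those without Y-linked reads, 34 were called lower, an alternative chosen after seeing the data. Over all genes that fit called 1175 lower in place of 1791, and 2486 in either direction in place of 3757. Leaving out 1 library gave 1073 to 1819 lower calls over all genes, and 2305 to 3704 calls in either direction. The median log2 fold change of the replication genes ran from -1.09 to -0.66 over the fits that left out 1 library. Orc4 turned to 0.0027 without 5E1 replicate 3 (edgeR adjusted p 0.989), and over the fits that left out 1 library its log2 fold change ran from -0.15 to 0.0027. Of the other pathway genes, 20 to 37 were called lower with 1 library left out (33 with all), and 0 to 1 higher. The 1 higher call became 0 with library size alone, no low-count filter, the replicate block, the Y-linked term and without both libraries that lack Y-linked reads. Mitosis genes called lower numbered 11 with no low-count filter and 9 to 20 with 1 library left out, against 19. The same-numbered libraries of both groups did not deviate together (correlations -0.14, -0.0076 and -0.071). The labels state no pairing, and with 3 libraries per group these values cannot exclude one. With the replicate block 31 replication genes were called lower, 29 of them among the 37. That fit called 1500 genes lower over all genes, and 3220 in either direction. Leaving out 1 library leaves an arm with 2 libraries and fewer residual degrees of freedom. The lowest counts were those of Fen1 and Orc1, with 6 to 74 reads per library.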
